A study of Mus musculus with 12 samples.

Results

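The mRNA levels of 10 genes that carry fatty acids into liver cells, bind them there, or free and collect them from circulating lipoproteins were followed in mouse livers of 3 ages. The 10 were chosen by name and known function, with no threshold on their values, from the 53465 genes of the deposited count table: Cd36, the fatty acid transport proteins Slc27a1, Slc27a2 and Slc27a4, the fatty acid binding proteins Fabp1, Fabp2 and Fabp4, the lipases Lpl and Lipc, and the lipoprotein receptor Vldlr. They were chosen with earlier results of these data known, so setting them beside all genes is not a blind comparison. All 10 were found in the table and all had counts in each of the 12 livers. RNA-seq was done on livers of C57BL/6N mice, called young at 3 months, middle-aged at 12 months and aged at 18 months of age. The sample labels give 4 livers per age, each as a separate animal, while the series' own design note gives 3 replicates per age. All 12 livers of the table were used here, and no treatment or genetic change is named in the labels. The study's methods name male mice. The RNA came from bulk liver tissue, so fewer cells of a type and less RNA per cell cannot be told apart in any value below.

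Long-chain fatty acids reach the liver bound to albumin or packed as triglyceride in lipoprotein particles. Lipases at the vessel wall split that triglyceride, receptors take up what remains of the particles, and membrane proteins such as CD36 and the fatty acid transport proteins help fatty acids cross into the cell, where acyl-CoA is formed and small binding proteins hold the lipid in solution. In the adult liver Fabp1 and Slc27a2 belong to hepatocytes, Fabp2 is best known from the intestine, and Fabp4 and Lpl are best known from adipocytes, macrophages and endothelium. Cd36, Fabp1 and Vldlr are textbook targets of the nuclear receptors that sense fatty acids.

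The libraries held between 8124312 and 10527159 counts assigned to genes. The livers carried hepatocyte transcripts throughout. Of 10 hepatocyte markers 9 were matched by symbol, all but the symbol Tf, so the gap is one of matching and not a sign of absent transcripts. The summed level of the 9 lay between 72882 and 115743 CPM (counts scaled so that the genes of a library sum to 1000000). Synthetic spike-in RNAs split the libraries into 2 sets of 6 by replicate number, replicates 1 and 2 (set A) against replicates 3 and 4 (set B). Over 31 spike-ins, libraries of the same set correlated at 0.9968 or more and libraries of different sets at 0.9252 or less, so the differences that passed the test are also given within each set, on 2 livers per age. Young replicate 2 stood apart in spike-in share, at 10.6% of its counts against 1.59% to 6.23% in the others, and in mitochondrial share, at 19.2% of gene counts. Mitochondrial shares were 7.40% to 10.68% in the other young, 6.45% to 9.03% in the middle-aged and 5.48% to 7.53% in the aged livers, and their part in the differences between ages was not tested. Genes with a count numbered 22284 in young replicate 3, the library with the fewest gene counts, and 19982 in middle-aged replicate 1. The other libraries had 16361 to 17563, and the part of this in the differences between ages was not tested either. Young replicate 3 and middle-aged replicate 3 carried skeletal muscle transcripts, with 183 and 314 counts of the muscle actin gene Acta1 against at most 16 in the other 10 livers. Middle-aged replicate 3 also carried adipocyte transcripts, with 101 counts of the adipokine gene Adipoq against at most 13 elsewhere.

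Levels of different genes were compared per length, as TPM (counts per exonic base scaled to a common total per library), a scale used here between genes only. Fabp1, the abundant hepatocyte fatty acid binding protein, stood highest with a mean of 10561 TPM over the 12 livers. The very long-chain acyl-CoA synthetase and transporter Slc27a2 followed at 465 TPM, hepatic lipase Lipc at 206 TPM and the intestinal-type binding protein Fabp2 at 146 TPM. Cd36, the scavenger receptor that takes up fatty acids, came next at 36.3 TPM and the transporter Slc27a4 at 19.4 TPM, although in young livers alone their means stood the other way round, at 14.5 and 16.6 TPM. Lipoprotein lipase Lpl at 4.20 TPM, the adipocyte binding protein Fabp4 at 4.13 TPM, the transporter Slc27a1 at 2.002 TPM and the very low density lipoprotein receptor Vldlr at 0.292 TPM made up the low end. The ranges over the 12 livers did not overlap between Fabp1 and Slc27a2, Slc27a2 and Lipc, Slc27a4 and Lpl, or Slc27a1 and Vldlr. The other 5 neighbours in this order overlapped: Lipc was above Fabp2 in 11 livers, Fabp2 above Cd36 in 12, Lpl above Fabp4 in 9, and both Cd36 above Slc27a4 and Fabp4 above Slc27a1 in 8. Taking the longest transcript in place of all annotated exons left the order as it was, although Lpl, whose annotated exons total 10478 bases, then read 8.93 TPM.

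**Figure D1:**
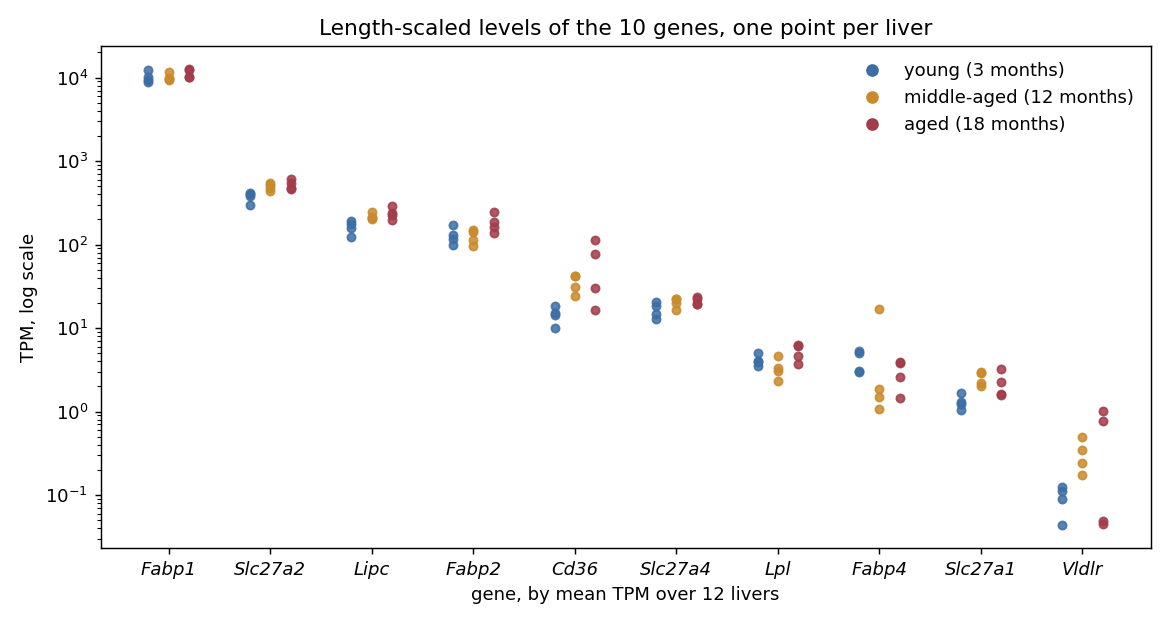
TPM of each gene on a log axis against the gene, ordered by mean, with a point for each of the 12 livers coloured by age. Fabp1 lies between 8795 and 12766 TPM and Vldlr at or below 1.02 TPM, and the widest spreads are those of Cd36, Fabp4 and Vldlr.

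Between aged and young livers 1 of the 10 genes, Cd36, passed the DESeq2 test at an adjusted p under 0.05. Over all genes tested the call was made for 3.58%, with 1.87% higher and 1.71% lower in aged livers. Estimates were above 0 for 8 of the 10, with a median log2 fold change of 0.21 against -0.000299 over all tested genes, and 4 of the 10 had an unadjusted p under 0.05 against 7.92% of all genes. Unadjusted shares, here and in the comparisons below, are over all genes with a p-value, including many with few counts. Called shares are over the genes left after filtering for low counts, so the unadjusted shares are no matched background for the 10. The 4 aged and 4 young livers overlapped for every one of the 10, while the groups were separate for 7.9% of the 11804 genes that averaged 10 or more normalised counts.

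Between middle-aged and young livers none of the 10 passed the DESeq2 test, where 6.41% of all genes did, 3.51% higher and 2.9% lower. Vldlr had no adjusted p in this comparison, so only 9 could be called. An unadjusted p under 0.05 was found for 4, against 9.31% of all genes, and edgeR called 0. The estimates of the 10 had a median of 0.13, or 0.09 over the 9 with an adjusted p, against 0.00650 over all tested genes. Of the 10, 7 were above 0 and 3 below. Cd36, Slc27a1 and Vldlr were higher in each middle-aged liver than in any young liver. That is 3 of 10, beside 15.6% of genes whose groups did not overlap in this comparison.

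Between aged and middle-aged livers none of the 10 passed the DESeq2 test either, and Vldlr again had no adjusted p. An unadjusted p under 0.05 was found for 2, against 4.31% of all genes, and edgeR called 0. The DESeq2 test was passed by 1.14% of all genes, 0.537% higher and 0.606% lower. Only Fabp2 of the 10 had groups that did not overlap, against 6.16% of genes. With all 3 ages in the test, 1 of the 10, again Cd36, passed DESeq2's likelihood ratio test, beside 6.96% of all genes, and 6 of the 10 had an unadjusted p under 0.05, against 9.42% of all genes.

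**Figure D2:**
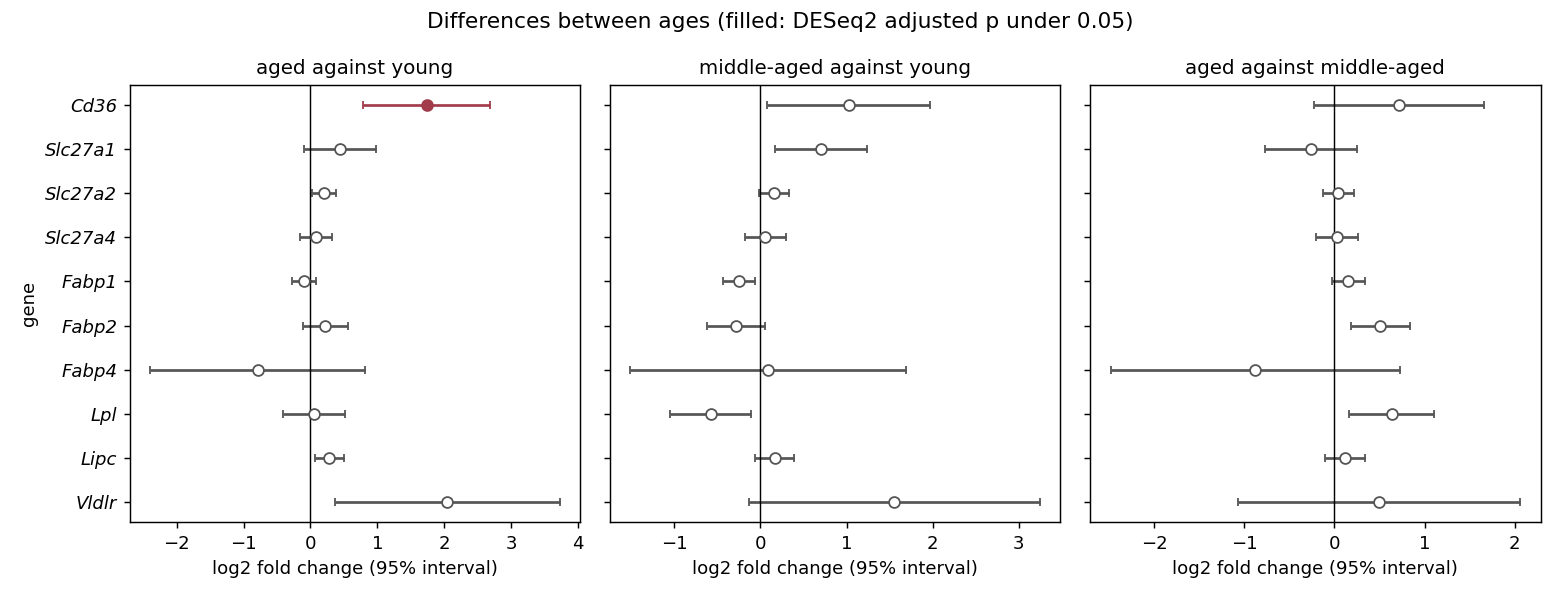
Log2 fold change with its 95% interval from the DESeq2 fit, for each gene in each of the 3 comparisons of ages. Cd36 in aged against young livers is the filled point at 1.74, the intervals of Vldlr and Fabp4 are the widest, and the only other estimates past 1 on the log2 scale are those of Vldlr at 2.05 and 1.55 and of Cd36 in middle-aged livers at 1.03.

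Cd36 was higher in aged than in young livers by 1.74 ± 0.48 on the log2 scale (SE, DESeq2 adjusted p = 0.016), or 3.34-fold on the means. Its normalised counts in young livers were 308, 213, 242 and 234 in replicates 1 to 4. In middle-aged livers they were 594, 624, 453 and 361. In aged livers they were 261, 432, 1502 and 1132. The aged group thus held a liver within the young range, a liver within the middle-aged range and a pair far above every other liver, and had a mean of 832 with an SD of 584, beside 249 ± 41.0 in young livers (SD, n = 4).

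The pair of high aged livers, replicates 3 and 4, belonged to set B. Within set B the difference between aged and young was 2.47 ± 0.20 (log2, SE, DESeq2 adjusted p = 1.15e-32), and within set A it was 0.42 ± 0.28 (DESeq2 adjusted p = 1). The test of the difference between the sets gave 2.06 ± 0.36 (log2, SE, DESeq2 adjusted p = 1.01e-05), a call made for 0.732% of all genes and for 1 of these 10. Vldlr had no adjusted p in that test. With edgeR the Cd36 difference between aged and young had an adjusted p of 0.0578, and in DESeq2 fits without aged replicate 3, aged replicate 4, young replicate 2 or young replicate 3 it was 0.147, 0.107, 0.0915 and 0.062. Across the 3 ages the DESeq2 adjusted p was 0.0355, and it was above 0.05 in 10 of the 12 fits that left out a liver, the exceptions being those without aged replicate 1 or aged replicate 2. Without both livers that carried muscle transcripts it was 0.216.

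Middle-aged livers had 2.04-fold the young mean of Cd36, a log2 difference of 1.03 ± 0.48 with a DESeq2 adjusted p of 0.186 when all 12 livers were fitted. The difference was positive in both sets, at 1.22 ± 0.28 in set A and 0.77 ± 0.20 in set B (log2, SE, DESeq2 adjusted p = 0.00139 and 0.00712). In a fit of the 8 young and middle-aged livers alone it passed the test (DESeq2 adjusted p = 1.35e-05). The fit of all 12 livers shares 1 estimate of spread per gene over the 3 ages, and the aged livers ranged from 261 to 1502.

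Cd36 lies on chromosome 5, 17781690 to 17888801, minus strand, with 6 annotated transcripts (GRCm38, GENCODE M21). Fabp1, the most abundant of the 10, lies on chromosome 6, 71199827 to 71205023, plus strand, with a single transcript. The 250 bases before their RefSeq transcript starts are shown because Cd36 is the gene that passed the test, Fabp1 is the most abundant, and both are known targets of fatty acid sensing receptors. Capitals mark the receptor hexamer AGGTCA on either strand (TGACCT when read on this strand) and its relaxed direct repeat, in which any base may stand at the fourth place of each AGGNCA and 1 base separates the pair. The Cd36 window is chr5:17835897-17836146, minus strand, and lies inside the span GENCODE gives to the gene. The Fabp1 window is chr6:71199629-71199878, plus strand, and holds the start GENCODE gives.
Cd36: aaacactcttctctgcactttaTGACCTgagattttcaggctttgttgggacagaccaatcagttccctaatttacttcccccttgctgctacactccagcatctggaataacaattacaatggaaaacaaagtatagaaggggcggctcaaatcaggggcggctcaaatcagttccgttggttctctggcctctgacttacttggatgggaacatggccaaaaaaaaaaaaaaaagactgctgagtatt
Fabp1: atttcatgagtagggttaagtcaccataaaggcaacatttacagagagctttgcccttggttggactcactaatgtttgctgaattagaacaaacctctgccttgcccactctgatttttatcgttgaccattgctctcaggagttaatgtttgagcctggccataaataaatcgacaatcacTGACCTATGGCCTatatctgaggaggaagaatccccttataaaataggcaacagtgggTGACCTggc
Counted back from the RefSeq start, the hexamer was found at -228 to -223 before Cd36 and at -67 to -62 and -9 to -4 before Fabp1. The relaxed direct repeat was found before Fabp1 at -67 to -55 as TGACCTATGGCCT, and TATAAA at -30 to -25. Both strands were searched, and each repeat may contain hexamers counted on their own. Of 32851 RefSeq windows of the same length the hexamer was in 14.02%, the relaxed repeat in 0.3379% and TATAAA in 12.37%. Windows were read for 8 of the 10 genes, 12 windows in all, leaving out Fabp4 and Lpl. The hexamer was also present before Slc27a2 and, at -88 and -76, before Lipc.

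**Figure D3:**
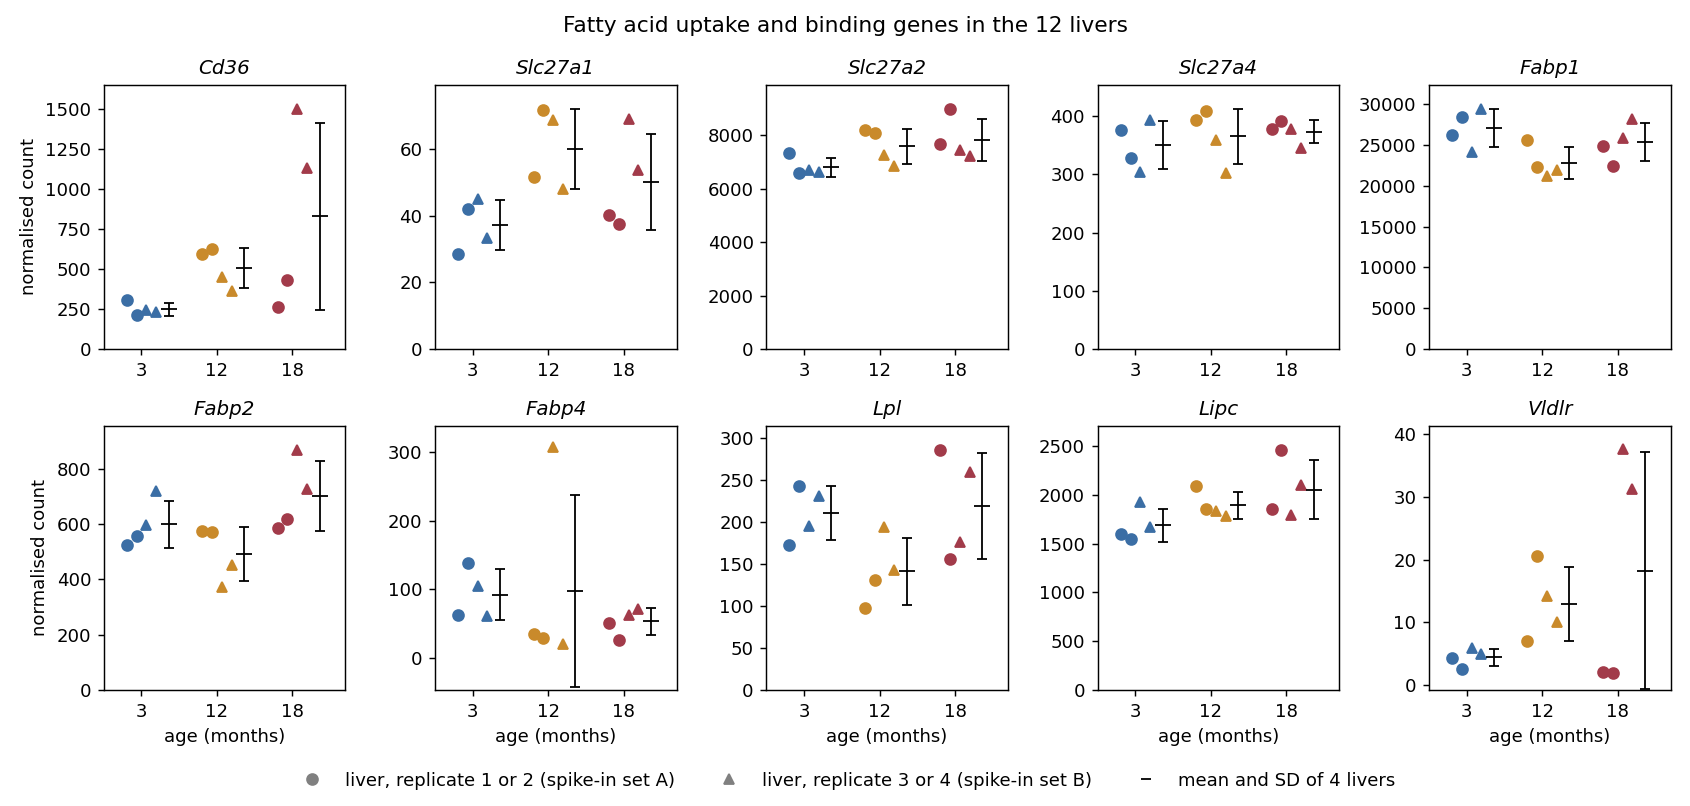
Normalised counts of each of the 10 genes against age in months, a point per liver, with circles for replicates 1 and 2 (set A), triangles for replicates 3 and 4 (set B) and a bar for the mean and SD of 4 livers. Cd36 and Vldlr in aged livers separate into a low pair of circles and a high pair of triangles, and Fabp4 has a single high middle-aged liver at 308.

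Vldlr (chromosome 19, 27216484 to 27254231, plus strand), the receptor for triglyceride-rich particles, rested on 2 to 43 counts per liver. Its normalised counts were 4.25, 2.55, 5.92 and 4.88 in young livers and 6.95, 20.6, 14.1 and 10.02 in middle-aged livers. In aged livers they were 2.01, 1.93, 37.6 and 31.3. The high pair were again aged replicates 3 and 4. The other aged pair had 2 deposited counts each, as did young replicate 2, and lay below every young liver only after division by the size factors. The log2 difference between aged and young was 2.05 ± 0.86 (SE, DESeq2 adjusted p = 0.177), with -0.80 ± 1.44 in set A and 2.68 ± 0.87 in set B. This difference passed in 1 of the 12 fits that left out a liver, the fit without aged replicate 1 (DESeq2 adjusted p = 0.03). In those fits its adjusted p was as high as 0.603. Middle-aged and young livers did not overlap, at 12.9 ± 5.92 against 4.40 ± 1.42 normalised counts (SD, n = 4). Their log2 difference was 1.55 ± 0.86 (SE, DESeq2 unadjusted p = 0.0716, no adjusted p). The groups were parted by few reads, with 7 deposited counts in middle-aged replicate 1 and 5 in young replicates 3 and 4.

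Across the 12 livers after subtracting age means, Cd36 and Vldlr had a Pearson r of 0.878 and a Spearman rho of 0.811, on log2(normalised count + 1). The permutation p of r was 0.0974, or 0.612 after Benjamini-Hochberg adjustment over the 45 pairs of the 10 genes, and that of rho was 0.076, or 0.498 adjusted. Within set A r was 0.267 and within set B it was 0.878 over 6 livers each. With age means subtracted, each age in a set then adds only the difference between its 2 livers, so the 6 points are not independent. Over the 12 livers with means of age and set subtracted, r was 0.370 (permutation p = 0.0947). Each permutation there could only swap the 2 livers of an age and set, so this p has coarse steps. Cd36 with Slc27a2, at an r of 0.963 on the same values, had a permutation p of 0.0956. Without the 2 livers farthest from the Cd36 median r was 0.768. None of the 45 pairs passed the adjusted permutation test, and 5 had an unadjusted p under 0.05, Cd36 with Vldlr not among them. By permutation p these were Slc27a2 with Slc27a4 (r = 0.662, p = 0.0193), Slc27a1 with Vldlr (r = 0.734, p = 0.0356) and Slc27a2 with Lpl (r = -0.687, p = 0.0384). Then came Fabp4 with Slc27a1 (r = 0.538, p = 0.0424) and Cd36 with Fabp2 (r = 0.628, p = 0.0431). The smallest adjusted p was 0.388, shared by these 5 pairs.

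The genes whose levels followed Cd36 most closely over the 12 livers, of 8888 that averaged 50 or more normalised counts, were Cyp4a14 with a Pearson r of 0.963, Zfand5 with 0.957 and Tmem64 with 0.949, all on log2(normalised count + 1). Age means were not subtracted for these r values, unlike for the pairs of the 10 genes above, so the 2 kinds of r are not comparable. Cyp4a14 encodes a fatty acid omega-hydroxylase. It had normalised counts of 3452 and 1204 in aged replicates 3 and 4, 20.1 and 113 in aged replicates 1 and 2, 1.27 to 34.0 in the young livers and 43.1 to 314 in the middle-aged livers, each of which was above every young liver. Over the 10 livers left without aged replicates 3 and 4, a choice made after seeing the data, r with Cd36 was 0.902 for Cyp4a14, 0.905 for Zfand5 and 0.879 for Tmem64. The 3 genes had been picked on all 12 livers, these 10 among them, so these values are not an independent test. In aged replicates 3 and 4 the lipid droplet gene Cidea had 325 and 76 counts against at most 10 in the other 10 livers, and Plin4, another droplet coat gene, had 117 and 60 against 83 in middle-aged replicate 3 and at most 30 in the remaining livers. Cidea was on the adipocyte list, had 2, 0, 1 and 0 counts in young livers, and passed the test between aged and young (DESeq2 adjusted p = 0.00485). Its fitted log2 difference was 1.63 in set A and 8.30 in set B, against young livers of at most 2 counts, and it was not among the genes edgeR tested. Of the other adipocyte genes, Adipoq and Lep were at 0 in all 4 aged livers. In aged replicates 1 to 4 Cfd had 3, 1, 17 and 10 counts, Retn 0, 0, 2 and 1 and Plin1 0, 0, 0 and 1. In the same order Car3 had 21911, 21839, 36845 and 41147 normalised counts, against at most 35980 in the young and middle-aged livers. Lipe had 103, 85.7, 82.1 and 64.4 and Adrb3 65.2, 43.3, 54.2 and 65.3.

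**Figure D4:**
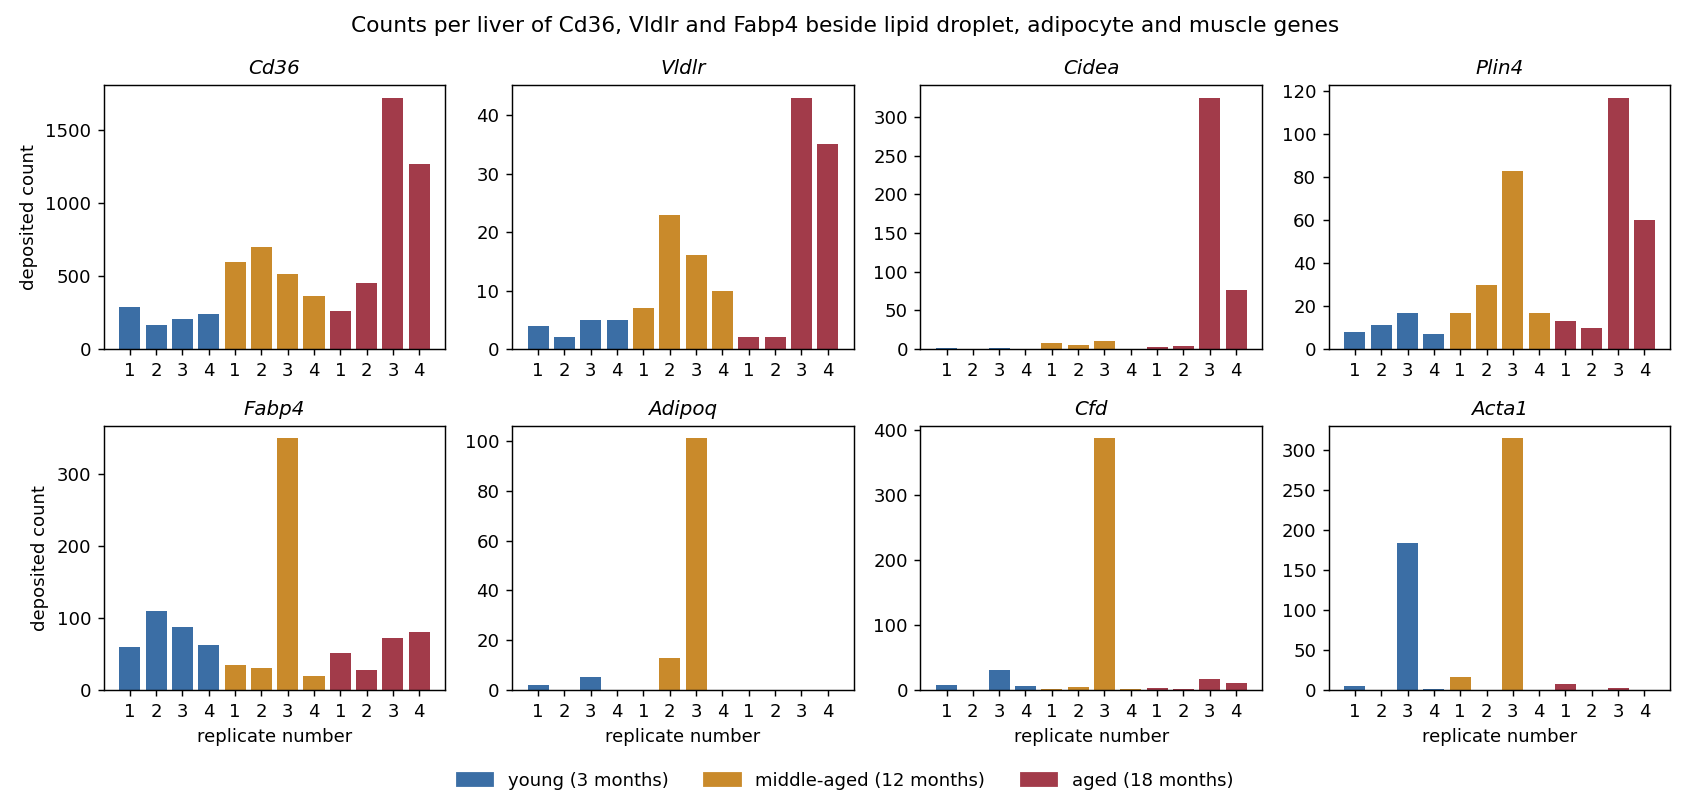
Deposited counts in each of the 12 livers, as bars from 0 by replicate number and coloured by age, of Cd36, Vldlr and 2 lipid droplet genes in the upper row and of Fabp4, 2 adipocyte genes and a muscle gene in the lower row. Aged replicates 3 and 4 stand above the other aged livers in the upper row, with Cidea at 325 and 76, and middle-aged replicate 3 stands highest in the lower row, with Fabp4 at 349 and Adipoq at 101.

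The 3 transport proteins join a fatty acid to coenzyme A as it enters. Slc27a2 (chromosome 2, 126552407 to 126588243), which also serves peroxisomal oxidation, had normalised counts of 7331, 6574, 6693 and 6620 in young livers. It had 8190, 8104, 7249 and 6844 in middle-aged and 7662, 8989, 7469 and 7223 in aged livers. Young replicate 1 lay within the other groups and the remaining 3 young livers lay below every older liver. The difference between aged and young was 0.20 ± 0.09 (log2, SE, DESeq2 adjusted p = 0.206), with a 95% interval from 0.03 to 0.38.

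Slc27a1 (chromosome 8, 71568882 to 71587302), whose product is known mainly from muscle and fat, had 28.7, 42.0, 45.0 and 33.2 normalised counts in young livers. The middle-aged livers held 51.6, 71.8, 68.9 and 48.1, each above the highest young liver. Aged livers held 40.1, 37.6, 69.0 and 53.6 and overlapped both. The log2 difference between middle-aged and young was 0.70 ± 0.27 (SE, DESeq2 adjusted p = 0.0949), with 0.81 ± 0.49 in set A and 0.58 ± 0.49 in set B. Slc27a4 (chromosome 2, 29802634 to 29817522) stayed between 303 and 409 normalised counts in all 12 livers, with a young mean of 351 ± 41.4, a middle-aged mean of 366 ± 46.9 and an aged mean of 374 ± 19.6 (SD, n = 4). Its log2 difference between aged and young was 0.09, with a 95% interval from -0.15 to 0.33.

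Among the binding proteins Fabp1 was the steadiest, with 1.39-fold between its highest and lowest liver. It had 26280, 28453, 24151 and 29419 normalised counts in young livers, 25661, 22348, 21177 and 21953 in middle-aged and 24873, 22483, 25841 and 28157 in aged livers. A middle-aged liver, replicate 1, lay within the young range and the other 3 lay below it. The log2 difference between middle-aged and young was -0.25 ± 0.09 (SE, DESeq2 adjusted p = 0.086), and it passed in a fit of those 2 ages alone (DESeq2 adjusted p = 0.0479). Of the 12 fits that left out a liver it passed in 1, without middle-aged replicate 1 (DESeq2 adjusted p = 0.03), and its adjusted p reached 0.276.

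Fabp2 (chromosome 3, 122895072 to 122899506, plus strand) had 525, 557, 595 and 719 normalised counts in young livers. The middle-aged livers held 573, 569, 372 and 452, all below the lowest aged liver. The aged livers held 586, 619, 868 and 726. Aged and middle-aged livers differed by 0.51 ± 0.17 (log2, SE, DESeq2 adjusted p = 0.12). Of the 12 fits that left out a liver this difference passed in 1, without aged replicate 1 (DESeq2 adjusted p = 0.0483), and its adjusted p reached 0.499. Within set B the difference was 0.96 ± 0.19 (DESeq2 adjusted p = 3.61e-05) and within set A 0.08 ± 0.20, and the difference between the sets was not tested for this pair of ages. Of 8 intestinal epithelium markers, the summed level was 1.27 to 3.04 CPM in all livers.

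Fabp4 (chromosome 3, 10204088 to 10208576, minus strand) had 62.6, 139, 104 and 60.5 normalised counts in young livers and 51.2, 26.0, 62.9 and 71.5 in aged livers. The middle-aged livers held 33.8, 27.8, 308 and 20.04. Middle-aged replicate 3 was thus the highest of the 12 livers and the other 3 middle-aged livers lay below every young liver. The log2 difference between middle-aged and young was 0.09 ± 0.82 (SE, DESeq2 adjusted p = 0.968) over all livers, and without middle-aged replicate 3 it was -1.74 with a DESeq2 adjusted p of 0.00177. That was 1 of the 12 fits that left out a liver, and in the others it did not pass. Of a list of 10 adipocyte markers 6 were highest in that liver (Adipoq, Plin1, Lep, Cfd, Retn and Lipe), while Plin4 and Cidea were highest in aged replicate 3, Car3 in aged replicate 4 and Adrb3 in young replicate 2. The summed level of all 10 did not set the liver apart, at 2259 to 3809 CPM at 3 months, 2270 to 2936 CPM at 12 months and 2344 to 4458 CPM at 18 months, and most of it was Car3, which hepatocytes also express. Without Car3, a choice made after its values were seen, the sum was 92.1 CPM in middle-aged replicate 3 and 18.7 to 20.8 CPM in the other middle-aged livers. It was 15.5 to 20.2 CPM in young livers and 15.3 to 61.4 CPM in aged livers, the highest being aged replicate 3. The part of adipocyte transcripts in the Fabp4 value was not tested.

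Lpl (chromosome 8, 68880491 to 68907448), which splits triglyceride in circulating particles and is low in healthy adult hepatocytes, had 173, 243, 195 and 231 normalised counts in young livers. Middle-aged livers held 97.3, 131, 194 and 142, and aged livers 286, 156, 177 and 259. The highest middle-aged liver was again replicate 3, and the other 3 lay below every young and every aged liver. The log2 difference between middle-aged and young was -0.58 ± 0.24 (SE, DESeq2 adjusted p = 0.126). It was -0.77 without middle-aged replicate 3, where it passed (DESeq2 adjusted p = 0.0421). That was 1 of the 12 fits that left out a liver, and in the others it did not pass, with adjusted p up to 0.368. Lipc (chromosome 9, 70798128 to 70952226), the lipase that hepatocytes secrete, had 1595, 1549, 1929 and 1673 normalised counts in young livers, 2095, 1851, 1834 and 1785 in middle-aged and 1856, 2461, 1798 and 2101 in aged livers. Young replicate 3 lay within the older livers and the other 3 young livers below them all. Aged livers differed from young ones by 0.28 ± 0.11 (log2, SE, DESeq2 adjusted p = 0.152).

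**Figure D5:**
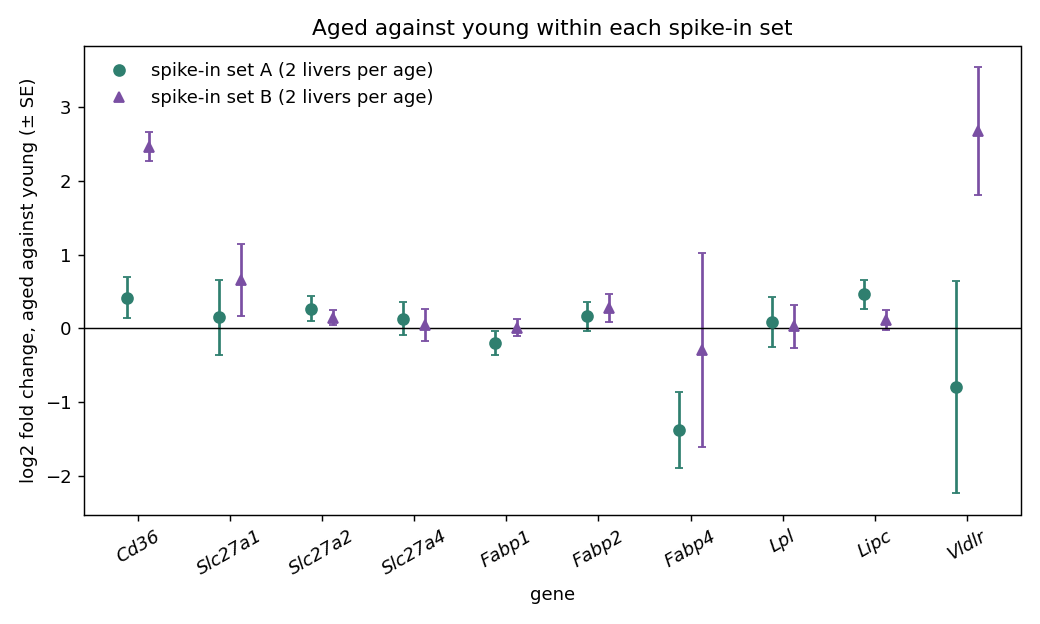
Log2 fold change of aged against young livers with its SE, fitted within set A (circles) and set B (triangles) with 2 livers per age each, for the 10 genes. Cd36 and Vldlr are far apart between the sets, at 0.42 and 2.47 and at -0.80 and 2.68, and for the other 8 genes the bars of the sets overlap or nearly meet.

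Around these 10, a list of 20 other genes of fatty acid transport and binding held 2 that passed the DESeq2 test between middle-aged and young livers, beside the 6.41% of all genes, and 0 between aged and young (4 unadjusted, edgeR 0) or aged and middle-aged (1 unadjusted, edgeR 0). Only 13 of the 20 had an adjusted p between middle-aged and young livers, 15 between aged and young and 13 between aged and middle-aged. Fabp5, the epidermal-type binding protein, fell by 1.99 ± 0.57 on the log2 scale in middle-aged livers (SE, DESeq2 adjusted p = 0.0143), with -2.58 in set A and -1.17 in set B and an edgeR adjusted p of 0.0493. Its young livers held 848, 695, 453 and 216 normalised counts and its middle-aged livers 88.4, 169, 88.3 and 211. Cav1, the caveola coat protein, was higher by 0.94 ± 0.25 (SE, DESeq2 adjusted p = 0.00889), with 0.71 in set A and 1.08 in set B, and did not pass with edgeR (adjusted p = 0.0555). The median log2 fold changes of the genes tested on this list were 0.12 from young to middle-aged, 0.06 from young to aged and 0.00307 from middle-aged to aged livers.

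A list of 19 other genes that control lipoprotein lipase or take up lipoproteins held 2 that were higher in middle-aged than in young livers, beside 3.51% of all genes tested that were called higher there. Of the 19, 17 had an adjusted p in each comparison of ages. The heparan sulfate carrier Sdc1 was higher by 0.45 ± 0.10 and the remnant receptor Lrp1 by 0.43 ± 0.13 (log2, SE, DESeq2 adjusted p = 0.000468 and 0.0181). In set A the differences were 0.67 and 0.49 and in set B 0.24 and 0.37, and the edgeR adjusted p-values were 0.0333 and 0.0852. Between aged and young livers Apoa5, an activator of lipoprotein lipase, was higher by 0.59 ± 0.17 (log2, SE, DESeq2 adjusted p = 0.0209, edgeR adjusted p = 0.0958), with 0.69 in set A and 0.50 in set B. None of the list passed between aged and middle-aged livers with DESeq2 (1 unadjusted) or edgeR. The median log2 fold changes of the genes tested were 0.11 from young to middle-aged, 0.11 from young to aged and 0.05 from middle-aged to aged livers.

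Of 20 transcription factors known to act on such genes, 2 were higher in middle-aged than in young livers, beside the 3.51% of all genes: Srebf1, which drives lipogenic genes, by 0.81 ± 0.20 and the fatty acid sensing receptor Ppara by 0.76 ± 0.25 (log2, SE, DESeq2 adjusted p = 0.00382 and 0.0393). In set A the differences were 0.92 and 1.07 and in set B 0.67 and 0.50, and edgeR adjusted p-values were 0.0506 and 0.105. None of the 20 passed between aged and young (4 unadjusted) or aged and middle-aged livers (1 unadjusted) with DESeq2, nor with edgeR. The median log2 fold changes were 0.0122 from young to middle-aged, -0.0139 from young to aged and -0.09 from middle-aged to aged livers. The difference between aged and young differed between sets for 2 of the 20, in opposite directions, beside 0.732% of all genes. Srebf1 had 2938 and 2991 normalised counts in aged replicates 3 and 4 against 1682 and 1683 in aged replicates 1 and 2, and its difference was larger in set B by 0.96 ± 0.22 (log2, SE, DESeq2 adjusted p = 0.00255). Nr1d1, a repressor of the circadian clock, had 447 and 432 against 845 and 833, and its difference was lower in set B, at -1.42 ± 0.22 between the sets (log2, SE, DESeq2 adjusted p = 2.99e-07).

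The summed levels of the other marker lists were 170 to 251 CPM for 10 endothelial, 303 to 584 CPM for 10 Kupffer cell and macrophage, 165 to 479 CPM for 10 stellate cell and fibroblast and 25.6 to 63.6 CPM for 8 biliary genes. For 8 skeletal muscle genes the sums were 78.7 CPM in young replicate 3, 103 CPM in middle-aged replicate 3 and 1.06 to 5.16 CPM in the others. Of the genes on the marker lists, the macrophage receptor Marco was higher in aged than in young livers (2.46 ± 0.69, log2, SE, DESeq2 adjusted p = 0.0178; 3.00 in set A and 1.62 in set B; edgeR adjusted p = 0.075), with 791 and 261 normalised counts in aged replicates 1 and 4 against at most 182 elsewhere. Sox9, of bile duct cells, was higher in aged livers than in young and in middle-aged ones (0.86 ± 0.24 and 0.95 ± 0.24, DESeq2 adjusted p = 0.0169 and 0.0117, edgeR adjusted p = 0.074 and 0.148). In set A its differences were 1.04 and 0.81 and in set B 0.69 and 1.14. Apart from these 2 and Cidea, no gene of the 8 marker lists passed the DESeq2 test between any pair of ages. Some could not be called, as they had no adjusted p. Between aged and young livers only 2 of 8 muscle, 1 of 8 intestinal and 6 of 10 adipocyte genes had one. Between aged and middle-aged livers the numbers were 0, 0 and 5. In aged replicates 3 and 4, the livers high in Cd36, the endothelial sums were 228 and 225 CPM and the macrophage sums 388 and 455 CPM, within the range of the other livers. Their hepatocyte sums, 111194 and 115743 CPM, were the highest of the 12, and the part of this in the Cd36 value was not tested.

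Genes that overlap Fabp2, Slc27a2 and Lipc in the annotation had at most 25 counts each over the 12 livers. The setting for strand in the counting was not stated in the sources used here, so reads of an antisense gene and of its partner may have been counted together.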

How the data were processed

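Total RNA-seq libraries of 12 mouse livers were analysed from 1 table of read counts per gene, which the authors deposited without normalisation. Age and replicate number came from the sample titles, and all columns were matched to samples. The submitters' processing notes name STAR 2.5.2b, SAMtools 1.9, featureCounts, R 3.6.3, edgeR 3.28.1 and DESeq2 1.26.0, and the builds mm10 and GRCm38. The strand setting is not given. The labels describe RNA extraction and directional libraries for 4 young and 4 old livers, so the preparation of the middle-aged ones is uncertain here. Identifiers were matched to GENCODE M21 (53360 of 53465), and promoter windows came from RefSeq on GRCm38.p6.

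All genes with at least 1 count (28449) entered a single DESeq2 1.42.0 fit in R 4.3.3 with age as the only term, after the study's stated use of DESeq2. The 92 spike-in rows were left out, size factors were medians of ratios, and adjusted p under 0.05 over all genes tested was the call. Normalised counts are counts divided by the size factor. Depths of 8124312 to 10527159 gene counts put a floor of 3 counts at 0.285 to 0.369 CPM.

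The 10 genes were named whatever their values. The 3 genes most like Cd36 were taken by Pearson r, and up to 4 genes per list by smallest adjusted p among those called. The lists were other fatty acid transport and binding genes, genes of lipoprotein lipase control and lipoprotein uptake, transcription factors, and markers of hepatocytes, adipocytes, endothelium, macrophages, stellate cells, bile ducts, intestine and muscle. Some genes of the lipoprotein list are not reported here and were left out of its counts. Members, lists and tests were chosen with earlier results of these data known. Pairs of genes were tested by 100000 permutations of livers within age. Alternatives were edgeR 4.0.16 quasi-likelihood tests, TMM and total-count factors, filters, a replicate block, spike-in set as a term, fits within sets or of 2 ages, and leaving out each liver. The scripts were tested on simulated data.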

Additional observations from a re-analysis of the deposited data

Results flagged for a closer look

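Of 30 groups of 4 livers (10 genes at 3 ages), 2 held a liver whose gap to the nearest other was above the 95% critical value of Dixon's test, where chance gives about 1 in 20 groups, or 1.5 of 30. Fabp4 in middle-aged replicate 3 was at 308.2 normalised counts, with the other 3 middle-aged livers between 20.04 and 33.8. Slc27a2 in young replicate 1 was at 7331 normalised counts, with the other 3 young livers between 6574 and 6693. The difference of Cd36 between aged and young livers was larger in spike-in set B than in set A by 2.06 on the log2 scale (DESeq2 adjusted p = 1.01e-05, edgeR adjusted p = 0.037), with both aged livers of set B above both of set A.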

How the results depend on the processing

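DESeq2 called 1 of the 10 genes between aged and young livers, and the count was 0 with edgeR, with the replicate block, with edgeR and the replicate block, within set A, in a fit of only the 2 ages, and with both livers that carried muscle transcripts left out. It was 3 with total-count factors (Cd36, Lipc and Slc27a2), and 0 to 2 on leaving out each liver, the 2 (Cd36 and Vldlr) without aged replicate 1. Between middle-aged and young livers the count was 0, against 1 with total-count factors (Slc27a1), within set A (Cd36) or without both livers with muscle transcripts (Fabp4), and 2 within set B (Cd36 and Fabp2) or in a fit of the 2 ages (Cd36 and Fabp1). Leaving out each liver gave 0 to 2, the 2 (Fabp4 and Lpl) without middle-aged replicate 3. Between aged and middle-aged livers it was 0, against 2 within set B (Cd36 and Fabp2) and 0 to 1 on leaving out each liver. Across the 3 ages it was 1, against 0 with edgeR, no independent filtering, the replicate block with either tool or spike-in set as a term, 2 with total-count factors or within set B, and 0 to 2 on leaving out each liver. Cd36 was not the gene called without both livers with muscle transcripts (Fabp4, with Cd36 at an adjusted p of 0.216) or without middle-aged replicate 3 (Fabp4 and Lpl). Leaving out 1 liver never changed the 1 gene that differed between sets or the 0 pairs, and without subtracting age means 1 pair passed (Cd36 with Vldlr). The cause was not tested in any of these. The fits without 2 livers and edgeR with the replicate block were chosen after seeing the data.

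The replicate numbers do not pair the livers: deviations of same-numbered livers had a mean correlation of -0.0331, with 2 of 12 pairs over 0.1. Total-count factors moved the median of all genes by 0.12 (aged against young) and 0.11 (middle-aged against young). Relative to that shift Lipc, Slc27a2 and Slc27a1 were at 0.28, 0.20 and 0.70, beside 0.28, 0.20 and 0.70 in the fit reported. Signs turned as follows, on the log2 scale and in estimates that passed no test unless said. For aged against young, Fabp1 was at 0.0226 with total-count factors (-0.093 relative to the shift) and 0.00828 within set B, Vldlr at -0.797 within set A, and Lpl ranged from -0.0945 to 0.191 on leaving out each liver. For middle-aged against young, Fabp4 was at -0.706 with the replicate block, -0.518 with edgeR and the replicate block, -0.303 with set as a term, -1.70 within set A, -1.67 without both livers with muscle transcripts (passing) and -1.74 to 0.429 on leaving out each liver (passing at -1.74, without middle-aged replicate 3). There Fabp2 was at 0.0799 within set A, and within set B Slc27a4 was at -0.0897 and Lipc at -0.00224, while Slc27a4 ranged from -0.00276 to 0.137 on leaving out each liver. For aged against middle-aged, within set A Cd36 was at -0.808, Fabp1 at -0.0181, Fabp4 at 0.326, Slc27a4 at -0.0551 and Vldlr at -2.81, and within set B Slc27a1 was at 0.0731. Fabp4 was at 0.958 without both livers with muscle transcripts and -1.22 to 0.958 on leaving out each liver. Vldlr was at -0.0816 with the replicate block, -0.156 with set as a term and -0.134 to 0.871 on leaving out each liver, where Slc27a2 ranged from -0.0255 to 0.0848 and Slc27a4 from -0.0496 to 0.0888. The difference between sets ranged on leaving out each liver from -0.0158 to 0.265 for Fabp2, -0.246 to 0.124 for Slc27a4 and -0.437 to 0.44 for Lpl. Counts of 2 to 43 per liver limit the precision of Vldlr.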
